A study of Mus musculus with 12 samples.

Results

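The C-type lectin receptors of myeloid cells examined here are the products of 8 mouse genes, Clec4n, Clec4d, Clec4e, Clec7a, Clec5a, Clec4a2, Clec4a3 and Clec12a. They were found by name, as the probesets of the deposited expression table that list 1 of these genes and no other, and each gene level averages the log2 values of its probesets. All 8 were present, with 64 probesets, among 15830 genes and 179614 probesets that name a single gene. The arrays were Affymetrix exon arrays of lumbar spinal cord, 1 mouse per array, in 4 groups of 3: hemisected EphA4 knockout, hemisected wild-type, sham-operated EphA4 knockout and sham-operated wild-type. Hemisection cut the left side of the cord, sham surgery was a laminectomy alone, and 6 mm of cord was taken after 4 days. The knockout was carried by every cell of the mouse, on a C57/BL6 background that all groups shared, and wild-type mice were littermates. Labelled ages ran from 9 to 14.5 weeks, and each group was labelled as 2 males and 1 female. The labels describe the tissue as the uninjured left side of the cord and the methods as its injured left side. The comparisons asked how injury moved these receptors and whether it moved them equally in both genotypes.

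The targeted gene matched the genotype labels on every array. Epha4 was at 4.82, 4.86 and 5.10 log2 in injured knockout cords, against 5.87, 6.24 and 6.11 in injured wild-type cords, and at 5.16, 5.19 and 5.15 in sham-operated knockout cords, against 6.66, 6.81 and 6.52 in sham-operated wild-type cords. The Y-linked gene Eif2s3y was at 3.25 in sham-operated knockout replicate 2, which is labelled male, and at 7.21 to 8.15 in the other arrays labelled male. Correlations between arrays of a group, across genes, which are not independent replicates, were 0.985 to 0.992. RNA extraction batches 1 and 2 held all 4 groups, batch 3 held only sham-operated knockout replicate 1 and batch 4 only injured knockout replicate 3.

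C-type lectin receptors are surface proteins with which macrophages, monocytes, dendritic cells and neutrophils recognise sugars and lipids of microbes and material released by dying cells. Activating members signal through the kinase Syk and the scaffold Card9 towards NF-kB and cytokine genes, either through a tyrosine motif of their own or through an adaptor, Fcer1g or Tyrobp. Inhibitory members carry a tyrosine motif that recruits phosphatases. In an injured cord such receptors are found on infiltrating monocytes and macrophages and on activated microglia. In bulk tissue, more or fewer cells of a type and more or less RNA per cell cannot be told apart.

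The 8 genes lie on chromosome 6 (GRCm38.p6). Clec4a3 (122952515-122969878), Clec4a2 (123122690-123143999), Clec4n (123229843-123247024), Clec4d (123262107-123275268) and Clec4e (123281789-123289871) follow one another, Clec12a (129349783-129365303) and Clec7a (129461591-129472785) form another group, and Clec5a (40574898-40585805) lies apart. RefSeq promoter windows of that build, from 250 bases before to 50 bases after a transcription start, were at hand for 7 members with 9 starts. They were searched on both strands for GAGGAAGT (PU.1-like), TTGCNNAA (C/EBP-like), TGANTCA (AP-1-like) and GGGNNTTCC (NF-kB-like). Of all 32851 windows, 3.2%, 10.8%, 7.81% and 5.82% held these motifs, in that order. The members' windows held 0 PU.1-like matches, C/EBP-like matches in Clec4e and Clec12a, AP-1-like matches in Clec4a2 and Clec12a, and an NF-kB-like match in Clec4a3. None of the 4 motifs was in the windows of Clec4d, Clec7a or Clec5a. A match describes letters and not a bound site. Printed below 5′ to 3′ on the gene's strand are the promoters of the 2 members with the C/EBP-like match and of 2 of the members whose levels moved most, with motif matches in capitals. In Clec4e (chr6:123289822-123290121, minus strand) the C/EBP-like match begins 66 bases before the start. In Clec12a (chr6:129349994-129350293, plus strand) the AP-1-like match comes first and the C/EBP-like match begins 140 bases before the start. Clec4d (chr6:123261857-123262156, plus strand) and Clec5a (chr6:40585756-40586055, minus strand) have no capitals.
Clec4e: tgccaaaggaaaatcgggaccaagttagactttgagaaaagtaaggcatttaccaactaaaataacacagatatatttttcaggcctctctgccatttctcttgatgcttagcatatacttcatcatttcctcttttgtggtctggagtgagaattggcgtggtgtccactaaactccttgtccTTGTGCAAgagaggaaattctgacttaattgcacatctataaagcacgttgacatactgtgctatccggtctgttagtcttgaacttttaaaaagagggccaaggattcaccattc
Clec12a: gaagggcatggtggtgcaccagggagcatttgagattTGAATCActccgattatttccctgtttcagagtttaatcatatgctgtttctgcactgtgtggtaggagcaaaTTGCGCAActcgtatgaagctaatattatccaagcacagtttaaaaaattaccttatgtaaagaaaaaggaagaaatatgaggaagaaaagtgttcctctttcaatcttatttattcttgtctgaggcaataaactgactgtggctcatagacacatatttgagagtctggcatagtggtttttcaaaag
Clec4d: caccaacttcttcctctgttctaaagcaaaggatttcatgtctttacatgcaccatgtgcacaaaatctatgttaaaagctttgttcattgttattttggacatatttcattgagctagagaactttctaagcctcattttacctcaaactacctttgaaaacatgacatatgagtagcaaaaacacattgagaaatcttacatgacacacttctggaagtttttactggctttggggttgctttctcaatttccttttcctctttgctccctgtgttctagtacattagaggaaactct
Clec5a: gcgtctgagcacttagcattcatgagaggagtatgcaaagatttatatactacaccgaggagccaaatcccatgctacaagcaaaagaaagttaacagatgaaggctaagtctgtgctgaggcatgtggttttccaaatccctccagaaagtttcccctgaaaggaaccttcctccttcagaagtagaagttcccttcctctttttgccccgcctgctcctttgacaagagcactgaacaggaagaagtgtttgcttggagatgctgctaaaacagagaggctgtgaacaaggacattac

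Injury moved 7 of the 8 receptors up and 0 down. Clec4n, Clec4d, Clec7a and Clec5a rose by 5.10- to 7.07-fold, Clec12a, Clec4e and Clec4a3 rose by less, and Clec4a2 did not pass the test. The effect is the mean of hemisection against sham surgery over both genotypes, fitted with limma over all 12 arrays. A gene was called where its p, adjusted by Benjamini-Hochberg over all genes, was below 0.05 and its fold change reached 1.2. Over all genes 12.8% were called higher, and the median log2 fold change was 1.52 for the 8 receptors and -0.08 for all genes. Of all 15830 genes, 2031 were called higher and 2685 lower, and with arrays centred on their own median 1763 and 3628.

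Clec4n, Clec4d and Clec4e encode neighbouring activating receptors that signal with the Fcer1g adaptor: Clec4n binds mannose-rich glycans of fungi, and Clec4e (Mincle) binds mycobacterial glycolipids and a nuclear protein released by dead cells, with Clec4d as its partner. Clec4n was at 6.21, 5.91 and 4.65 log2 in injured knockout cords, against 3.86, 3.51 and 3.89 in sham-operated knockout cords. In injured wild-type cords it was at 7.59, 6.43 and 6.91, against 3.78, 3.46 and 3.66 in sham-operated wild-type cords. Every injured array stood above every sham-operated array of its genotype, and injured knockout replicate 3 was the lowest of the injured arrays. Fitted, Clec4n rose by 2.59 ± 0.24 (SE) on the log2 scale (adjusted p = 3.4e-06), by 1.83 ± 0.35 in knockout cords and 3.34 ± 0.35 in wild-type cords.

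Clec4d was at 6.76, 5.74 and 4.98 log2 in injured knockout cords, against 4.13, 3.60 and 3.55 in sham-operated knockout cords. In injured wild-type cords it was at 7.91, 6.07 and 8.29, against 3.84, 4.11 and 3.59 in sham-operated wild-type cords. The groups again did not overlap, and the injured arrays spread more widely than for any other member, with an SD of 0.90 in injured knockout and 1.19 in injured wild-type cords (n = 3 each). Its mean rise was 2.82 ± 0.36 (adjusted p = 4.7e-05), with 2.07 ± 0.50 in knockout cords and 3.57 ± 0.50 in wild-type cords.

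Clec4e was at 4.31, 4.58 and 4.11 log2 in injured knockout cords, against 3.78, 3.85 and 3.80 in sham-operated knockout cords. In injured wild-type cords it was at 4.55, 4.02 and 4.45, against 3.96, 3.88 and 4.18 in sham-operated wild-type cords. These values overlapped between injured and sham-operated wild-type cords and did not overlap between the knockout groups. Clec4e rose by 0.43 ± 0.11 (adjusted p = 0.0068), a 1.35-fold change beside the 6.02-fold and 7.07-fold changes of Clec4n and Clec4d. Within genotypes the log2 fold change was 0.53 ± 0.15 in knockout cords, where it was called, and 0.33 ± 0.15 in wild-type cords, where it was not.

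Clec7a, the receptor for fungal beta-glucan, carries its own cytoplasmic tyrosine motif. It was at 7.02, 7.60 and 6.51 log2 in injured knockout cords, against 4.61, 4.10 and 4.70 in sham-operated knockout cords. In wild-type cords it was at 7.37, 6.64 and 7.01 after injury, against 4.37, 4.39 and 4.29 after sham surgery. No injured array came near a sham-operated one: the gap between the groups was 1.81 in knockout and 2.25 in wild-type cords. The rise was 2.62 ± 0.18 over both genotypes (adjusted p = 1.3e-07), 2.57 ± 0.25 in knockout and 2.66 ± 0.25 in wild-type cords.

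Clec5a signals through Tyrobp and is known from neutrophil and macrophage responses to viruses. It was at 7.03, 6.88 and 6.59 log2 in injured knockout cords, against 4.65, 4.56 and 4.57 in sham-operated knockout cords. After injury wild-type cords were at 7.18, 6.85 and 7.24, against 4.76, 4.31 and 4.81 after sham surgery. Its replicates lay closer together than those of Clec4n, Clec4d and Clec7a after injury, with an SD of 0.22 in injured knockout and 0.21 in injured wild-type cords. Clec5a rose by 2.35 ± 0.11 (adjusted p = 4.4e-09), the smallest error beside its effect among the 8 members.

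Clec4a2 (DCIR), which carries an inhibitory tyrosine motif, was at 3.66, 3.63 and 3.35 log2 in injured knockout cords, against 3.48, 3.49 and 3.48 in sham-operated knockout cords. In injured wild-type cords it was at 3.79, 4.01 and 3.94, against 3.63, 3.48 and 3.85 in sham-operated wild-type cords. Injured and sham-operated arrays overlapped in both genotypes, and the log2 fold change of 0.16 ± 0.08 was not called (adjusted p = 0.16, 95% confidence interval -0.02 to 0.34). Olfactory receptor genes, taken as genes of the lowest signals, averaged 3.21 to 3.67 log2 by array over 830 genes. This range held 8 of the 12 Clec4a2 values, 3 of them from injured cords, all of the knockout. It also held 3 sham-operated values each of Clec4n, Clec4d and Clec12a and 0 of their injured values, so that the fold changes of these receptors stand on sham levels at or near the lowest signals of the arrays. Whether signals so low follow the RNA was not tested.

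Clec4a3, a relative of Clec4a2 in the same cluster, was at 5.29, 4.91 and 5.12 log2 in injured knockout cords, against 4.85, 4.78 and 5.01 in sham-operated knockout cords, and these overlapped. In injured wild-type cords it was at 5.36, 5.62 and 5.51, against 5.03, 4.77 and 5.03 in sham-operated wild-type cords, without overlap. The rise was 0.39 ± 0.09 over both genotypes (adjusted p = 0.0035). It was called in wild-type cords at 0.55 ± 0.12, and the value in knockout cords, 0.23 ± 0.12, was not called.

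Clec12a, an inhibitory receptor for uric acid crystals, was at 4.49, 4.84 and 3.98 log2 in injured knockout cords, against 3.97, 3.63 and 3.58 in sham-operated knockout cords. In injured wild-type cords it was at 4.37, 4.01 and 4.72, against 3.68, 3.57 and 3.84 in sham-operated wild-type cords. The gap between injured and sham-operated arrays was 0.004 in knockout and 0.18 in wild-type cords, so that the groups only just failed to overlap. Clec12a rose by 0.69 ± 0.15 over both genotypes (adjusted p = 0.0029), by 0.71 ± 0.21 in knockout cords and by 0.67 ± 0.21 in wild-type cords.

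**Figure D1:**
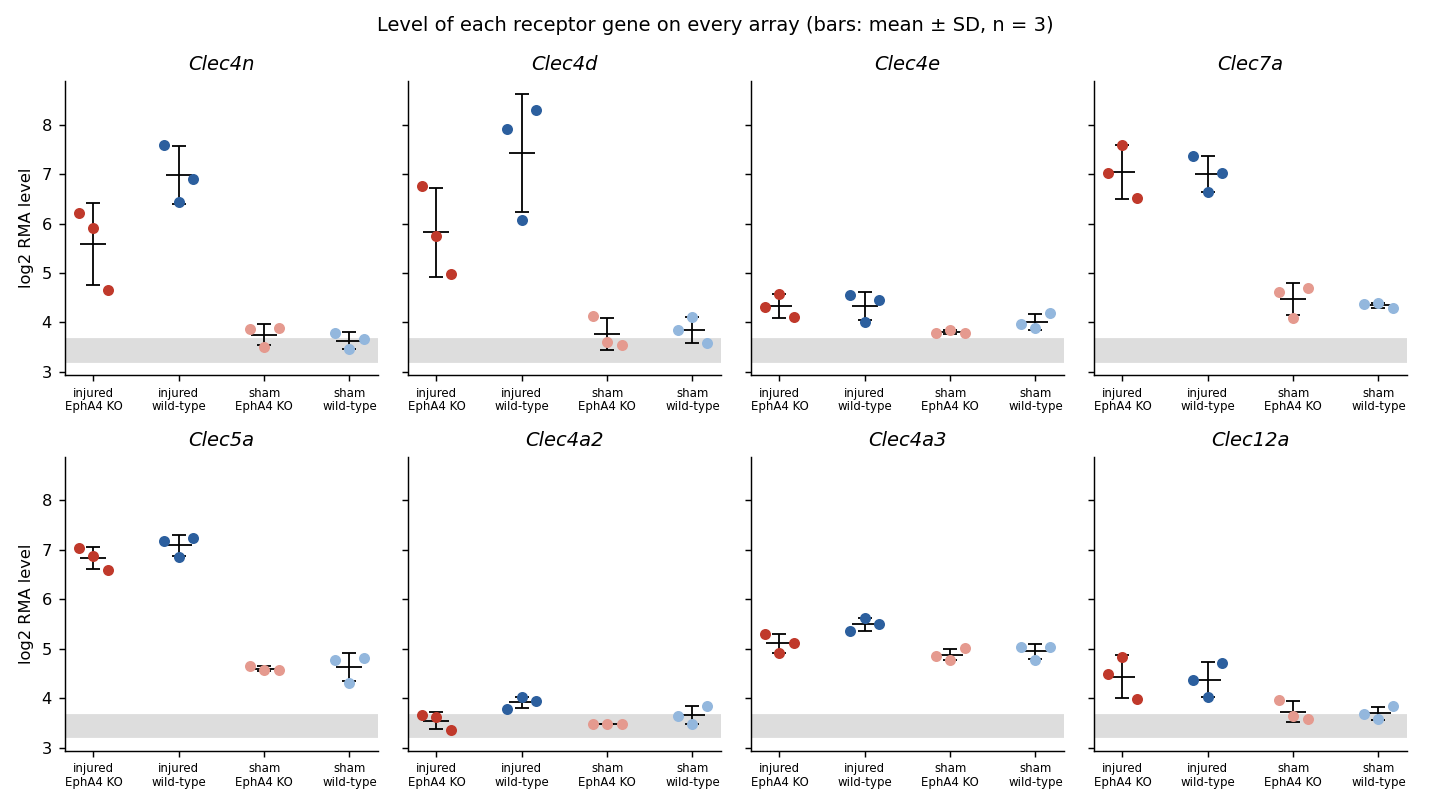
Log2 RMA level of each of the 8 receptor genes on every array, with the mean and SD of each group of 3; the grey band is the range by array of the mean over olfactory receptor genes. Clec4n, Clec4d, Clec7a and Clec5a stand well above their sham-operated levels in both genotypes, and Clec4a2 lies in or near the grey band.

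In each genotype 6 of the 8 receptors were called higher after injury, where 8.98% of all genes were called higher in knockout cords and 11.2% in wild-type cords. The receptors called were Clec4n, Clec4d, Clec7a, Clec5a and Clec12a in both, Clec4e in knockout and Clec4a3 in wild-type cords. The same 7 receptors were called over both genotypes whichever single array was left out, and 4 of the 8 receptors passed with a fold change of at least 2 required, as 3.44% of all genes did in the same direction. In knockout cords the count dropped to 3 without injured knockout replicate 1 and to 4 without sham-operated knockout replicate 2, the array whose Y-linked gene went against its label, and was 6 without injured knockout replicate 3. Ordered by mean level, every member stood higher in both injured groups than in its own sham group. The sham groups differed by at most 0.20 log2 for a member.

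The same comparison was made for single probesets, which sample different exons of a transcript. Of the 64 probesets of the 8 genes, 32 were called higher and 0 lower, and over all 194262 probesets 7.04% were called higher. All 7 of Clec4d and all 6 of Clec5a rose, with log2 fold changes of 1.71 to 3.59 and 1.29 to 3.15. For Clec4n 6 of 8 rose and the highest reached 4.01, and for Clec7a 4 of 5 rose and the highest reached 3.71. Clec12a had 4 of 10 called with a highest value of 1.85, Clec4e 2 of 8 with 0.87, Clec4a3 2 of 9 with 1.21 and Clec4a2 1 of 11 with 0.74. Within a receptor the probesets differed, from 0.29 to 4.01 log2 for Clec4n, and a gene mean holds probesets that moved and probesets that did not. The annotation names no second gene for any of the 64. Whether probesets of the related Clec4a genes bind one another's transcripts was not tested.

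**Figure D2:**
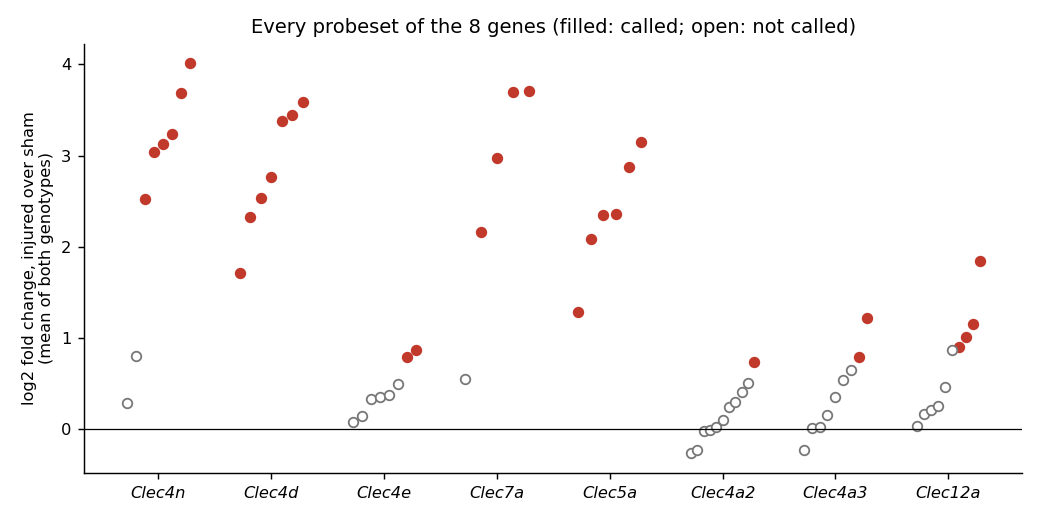
Log2 fold change after injury, mean of both genotypes, of every probeset of the 8 receptor genes; filled points were called and open points were not. All probesets of Clec4d and Clec5a were called, whereas Clec4e, Clec4a2, Clec4a3 and Clec12a hold mostly open points, which run from -0.27 to 0.87.

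Of the 8 receptors 1, Clec4n, was called between genotypes in injured cords, at a lower level in EphA4 knockout cords, and 0.796% of all genes were called in either direction. The fit used the 6 injured arrays, and a gene was called at a raw limma p below 0.01 with a fold change of 1.2 or more. Of all genes 0 passed an adjusted p of 0.05 by limma, and 639 had a raw p below 0.05. Clec4n was at 5.59 ± 0.83 in injured knockout cords and 6.98 ± 0.58 in injured wild-type cords (SD, n = 3 each). The fitted difference was -1.39 on the log2 scale with an SE of 0.40, or 2.62-fold lower in knockout cords, and its limma p adjusted over all genes was 0.998. Every injured knockout array of Clec4n lay below every injured wild-type array, by 0.22 at the nearest. The 95% confidence interval ran from -2.30 to -0.47. This SE and interval rest on limma's estimate of the spread, which draws on all genes. By a one-way analysis of variance, which uses the spread of Clec4n alone, p was 0.076 and Clec4n was not called. An exact two-sided permutation test of this value gave p = 0.10, the smallest that 3 against 3 arrays allow. Without injured knockout replicate 3, the lowest array, the log2 fold change was -0.92, and it was -1.08 without injured wild-type replicate 1, neither of them called. Injured wild-type replicate 1, the highest array for Clec4n, also stood apart in the mean of 6 skeletal muscle markers, at 6.06 against 4.15 to 4.62 in the other arrays. Acta1, skeletal actin, was at 8.77 against 4.88 to 5.66, while Myh4, at 4.00, was higher in sham-operated wild-type replicate 3, at 4.21. The part of this muscle signal in the result was not tested. Clec4n passed the threshold in 2 of the 6 fits that left out an injured array.

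Clec4d had a log2 fold change of -1.60 ± 0.58 (interval -2.92 to -0.27, exact permutation p = 0.20, one-way analysis of variance p = 0.14) and was not called. Its level was 5.83 ± 0.90 in injured knockout cords and 7.42 ± 1.19 in injured wild-type cords, and the groups overlapped because injured wild-type replicate 2, at 6.07, lay below injured knockout replicate 1. Without that wild-type array the log2 fold change was -2.28 and was called. Over the 6 fits that left out an injured array it ran from -2.28 to -1.16, and Clec4d was called in 2 of them. By size of log2 fold change Clec4d ranked 3 and Clec4n 8 among the 15830 genes.

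The inhibitory Clec4a2 and its relative Clec4a3 had smaller log2 fold changes, -0.37 ± 0.13 (interval -0.66 to -0.07) and -0.39 ± 0.13 (interval -0.69 to -0.08), neither of them called. For both, every injured knockout array lay below every injured wild-type array. This order, which 3 of the 8 receptors showed with Clec4n included, was found in 5.51% of all genes. Every injured knockout value of Clec4a2 lay in the range of the olfactory receptor genes, and whether signals so low follow the RNA was not tested. Clec5a was at -0.26 ± 0.16 (interval -0.61 to 0.09). Clec4e, Clec7a and Clec12a were at -0.004 ± 0.17, 0.03 ± 0.27 and 0.07 ± 0.24, with intervals of -0.40 to 0.39, -0.58 to 0.65 and -0.48 to 0.61, which do not exclude differences of the size seen for Clec4a2 and Clec4a3. Across the 8 receptors, 4 had a raw limma p below 0.05 (Clec4n, Clec4d, Clec4a2 and Clec4a3), as did 639 of all 15830 genes. The differences between receptors were not themselves tested.

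**Figure D3:**
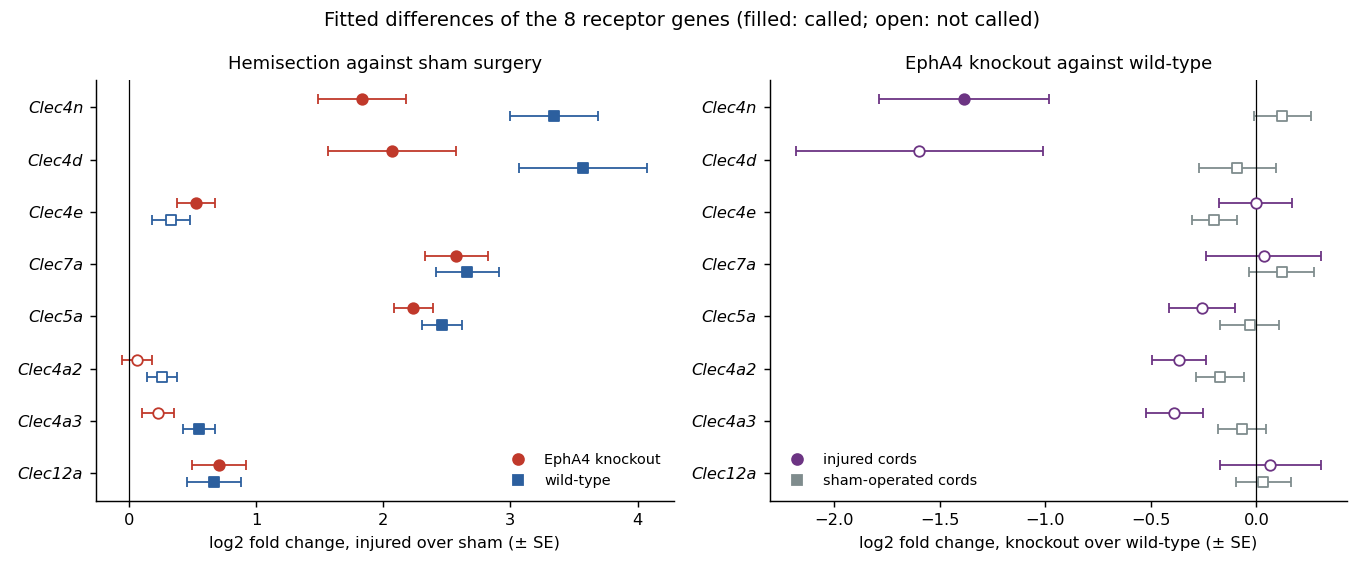
Log2 fold changes with standard errors of the 8 receptor genes: injured over sham-operated cords in each genotype (left) and EphA4 knockout over wild-type cords in each treatment (right), filled where called. Clec4n and Clec4d lie at -1.39 and -1.60 between genotypes in injured cords, and Clec4n alone is filled in the right panel.

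Within extraction batches 1 and 2 the direction between injured genotypes was below 0 in both for Clec4n, Clec4d, Clec5a, Clec4a2 and Clec4a3. It was above 0 in both for Clec12a, and for Clec4e and Clec7a it turned between the batches. In batch 1 Clec4n differed by -0.76 and Clec4d by -1.44 between injured knockout and injured wild-type arrays, and in batch 2 by -1.38 and -1.15. Clec4e was at 0.35 in batch 1 and -0.24 in batch 2, and Clec7a at 0.77 and -0.35. In sham-operated cords all 8 receptors were below 0 in batch 1, with Clec4n at -0.27, and 4 were in batch 2, where Clec4n was at 0.33. The difference between the injury responses, knockout minus wild-type, was thus -0.49 in batch 1 and -1.72 in batch 2 for Clec4n, and -1.19 and -0.84 for Clec4d. Between injured genotypes, of the 8 receptors 5 were below 0 in batch 1 and 7 in batch 2. A difference between injured or between sham-operated genotypes here rests on 2 or 3 arrays and a difference of responses on 5, and none carries a test.

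In sham-operated cords 0 of the 8 receptors were called between genotypes by limma, where 1.35% of all genes were. A raw limma p below 0.05 was found for 0 of the 8 and for 997 of all 15830 genes. By a one-way analysis of variance, the test that the study names for these arrays, 0 passed, as 0.581% of all genes did. Log2 fold changes ran from -0.20 ± 0.11 for Clec4e to 0.12 ± 0.14 for Clec4n. Clec4e was the only receptor with every knockout array below every wild-type array, at 3.78 to 3.85 in sham-operated knockout cords and 3.88 to 4.18 in sham-operated wild-type cords, an order found in 6.34% of all genes.

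Over all 12 arrays the difference between the injury responses was tested as an interaction, and 0 genes passed an adjusted p of 0.05 by limma. Clec4n had -1.51 ± 0.49 (adjusted p = 0.853) and was the 1 receptor called at a raw p below 0.01, where 1.05% of all genes were called. Clec4d had the same size with a larger error, -1.51 ± 0.71 (interval -3.05 to 0.03), and was not called. The others ran from -0.32 ± 0.17 for Clec4a3 to 0.20 ± 0.21 for Clec4e. For Clec4n the interaction passed in 4 of the 12 fits without 1 array and ranged from -1.82 to -1.04.

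Genes that carry the receptors' signal were followed next, from lists of their known functions. Of 15 measured adaptors and proximal kinases, 10 rose after injury and 0 fell, with a median log2 fold change of 0.93. Over all 15830 genes 12.8% were called higher and 2685 genes lower. Tyrobp, the adaptor of Clec5a, was at 9.65, 9.87 and 9.16 in injured knockout cords, against 6.94, 6.98 and 6.96 in sham-operated knockout cords, and at 9.72, 9.82 and 10.1 in injured wild-type cords, against 6.54, 6.73 and 6.89 in sham-operated wild-type cords. Injured and sham-operated arrays were far apart, and Tyrobp rose by 2.87 ± 0.11. Fcer1g, the adaptor of Clec4n, Clec4d and Clec4e, rose by 2.78 ± 0.14, the signalling adaptor Lcp2 by 1.85 ± 0.10, the exchange factor Vav1 by 1.85 ± 0.08 and Syk by 0.93 ± 0.10. Between genotypes in injured cords Lcp2 was called lower in knockout cords at -0.48 ± 0.13, as 0.796% of all genes were called in either direction. Fcer1g at -0.43 ± 0.17 and Tyrobp at -0.31 ± 0.19 were not called.

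Downstream, 5 of 12 genes of the Card9 module and NF-kB rose and 0 fell, with a median of 0.25, where 12.8% of all genes rose. The kinase Prkcd rose by 0.85 ± 0.08, and the transcription factors Nfkb2, Nfatc1 and Rel by 0.71 ± 0.07, 0.57 ± 0.07 and 0.46 ± 0.07. Card9 itself, at 0.11 ± 0.11, Bcl10 at 0.27 ± 0.12 and Malt1 at 0.05 ± 0.09 were not called. Of 5 phosphatases that act with inhibitory receptors or on their kinases, 4 rose, among them Ptpn6 by 2.17 ± 0.10, Inpp5d by 2.06 ± 0.09 and Ptprc by 1.67 ± 0.09. Between genotypes in injured cords limma called 0 of the 12 and 0 of the 5, with 0 and 1 at a raw p below 0.05. Of all 15830 genes 0.796% were called and 639 had such a p.

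Among 21 cytokines, chemokines and early genes that these receptors are known to induce, 9 rose and 0 fell, with a median of 0.28. Over all genes 12.8% rose. The chemokine Ccl3 rose by 4.07 ± 0.15, Ccl2 by 2.16 ± 0.18, Tgfb1 by 1.71 ± 0.14 and Ccl4 by 0.89 ± 0.14, while Il1b, at 0.64 ± 0.26, and Il6, at 0.10 ± 0.12, did not pass. Ccl2, which draws monocytes into tissue, was at 5.97, 6.04 and 6.17 in injured knockout cords, against 7.80, 6.52 and 7.73 in injured wild-type cords, with no overlap. It was called lower in knockout cords at -1.29 ± 0.30 (limma adjusted p = 0.998), the only one of the 21, where 0.796% of all genes were called. Of 5 self ligands named for these receptors, 4 rose: Vim, which encodes vimentin, by 2.71 ± 0.09, Anxa1 by 2.63 ± 0.32, Lgals9 by 1.59 ± 0.14 and Anxa5 by 0.51 ± 0.08. The gene of the nuclear ligand of Clec4e, Sap130, was at -0.10 ± 0.07 and was not called.

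Of 34 other C-type lectins measured, 9 rose and 0 fell, with a median of -0.05, where 12.8% of all genes rose. The 4 with the smallest p were the scavenger receptor Colec12 (0.78 ± 0.15), the endothelial Clec14a (0.64 ± 0.13), the mannose receptor Mrc1 (0.85 ± 0.19) and Cd302 (0.54 ± 0.13). Cd302 was the 1 member of that list called between genotypes in injured cords, at -0.47 ± 0.14, where 0.796% of all genes were called. All 9 measured myeloid transcription factors rose, with a median of 1.01, led by Spi1, which encodes PU.1, at 1.85 ± 0.12, Irf8 at 1.69 ± 0.12 and Runx1 at 1.32 ± 0.10.

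**Figure D4:**
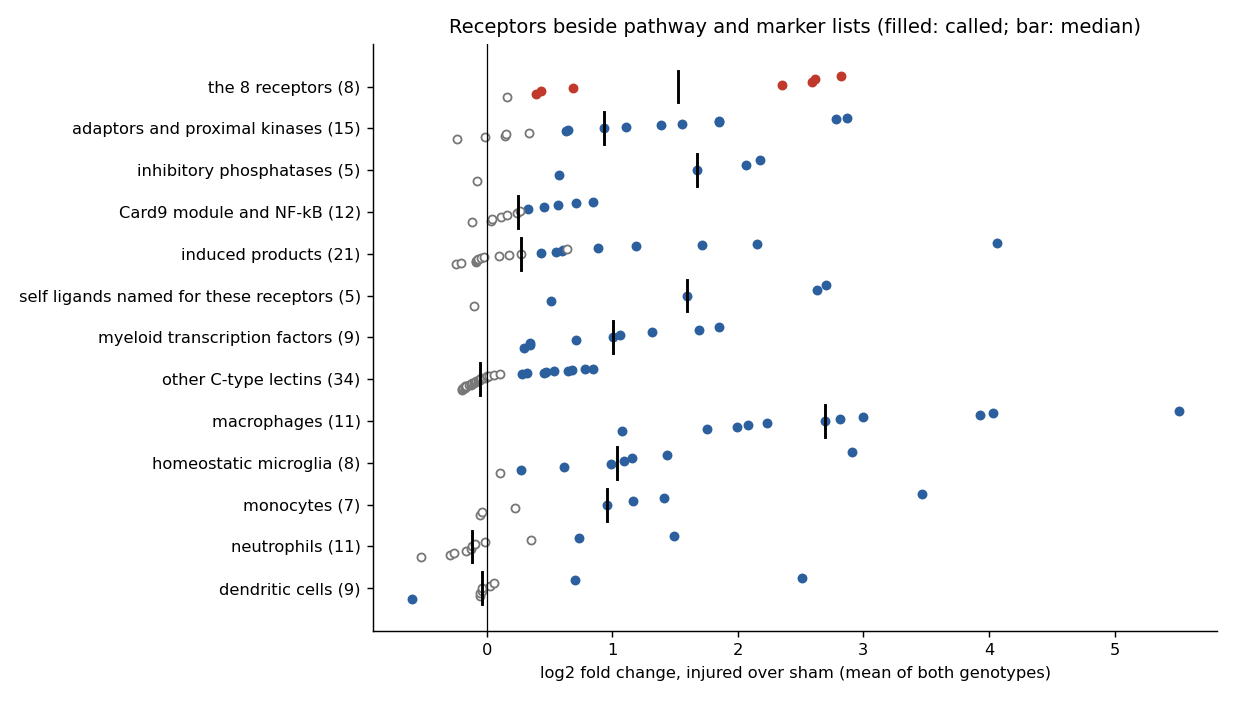
Log2 fold change after injury, mean of both genotypes, of the 8 receptors and of each gene of the pathway and marker lists, with the number measured in brackets; filled points were called and black bars are medians. Clec4n, Clec4d, Clec7a and Clec5a lie at 2.35 to 2.82 and the other receptors at 0.16 to 0.69, so that none is near their median of 1.52. The median was 2.69 for the macrophage markers and -0.05 for the other C-type lectins.

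Markers of some cell types rose as the receptors did and those of others did not, and the part of cell types in these results was not tested. All 11 macrophage markers rose, with a median of 2.69; their mean level was 7.36 to 7.87 log2 in injured knockout and 7.67 to 8.20 in injured wild-type cords, against 4.88 to 5.07 in sham-operated knockout and 4.95 to 5.005 in sham-operated wild-type cords. Of 7 monocyte markers 4 rose (median 0.96), and of 8 markers of homeostatic microglia 7 rose (median 1.04). For these counts and those that follow, 12.8% of all 15830 genes were called higher and 2685 genes lower. Of 11 neutrophil markers 2 rose, the receptor Csf3r (1.49) and Mmp8 (0.74), while S100a8 and S100a9 were at -0.01 and -0.12 and were not called. Of 9 dendritic cell markers 2 rose, and Flt3 was called lower at -0.60. By limma 0 of 6 T cell, 0 of 4 B cell, 0 of 4 NK cell and 0 of 4 mast cell and basophil markers were called, with 0, 3, 1 and 0 at a raw p below 0.05. Of 7 neuron markers 4 fell, and of 5 astrocyte markers 3 rose and 1 fell. Of 4 oligodendrocyte and 6 skeletal muscle markers limma called 0, with 0 of each at a raw p below 0.05. Of 7 markers of pericytes, fibroblasts and meninges 4 rose (median 1.42) and of 4 endothelial markers 3 rose (median 0.74). All of both lists had a raw limma p below 0.05, as did 6726 of all 15830 genes. The mean of the fibroblast list was 6.93 to 8.66 in injured knockout and 7.20 to 7.73 in injured wild-type cords, against 5.50 to 7.19 in sham-operated knockout and 5.56 to 6.25 in sham-operated wild-type cords. Injured knockout replicate 1 (8.66) and sham-operated knockout replicate 1 (7.19) were the highest arrays of their groups.

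Between genotypes in injured cords 0 of the 11 macrophage markers and 0 of the 7 monocyte markers were called by limma, where 0.796% of all genes were. A raw limma p below 0.05 was found for 5 and 0 of them, and for 639 of all 15830 genes. All 11 macrophage values lay below 0, with a median of -0.30, and 6 of the 7 monocyte values did, with a median of -0.27. Array by array, the macrophage mean stood at -0.08, -0.24 and -0.59 in injured knockout replicates 1, 2 and 3 relative to the injured wild-type mean, and Clec4n at -0.77, -1.07 and -2.32. Injured wild-type replicate 2 was also low, at -0.28 for the macrophage mean, -0.54 for Clec4n and -1.36 for Clec4d. Clec7a, in the same arrays, was at 0.01, 0.59 and -0.50 in injured knockout replicates 1, 2 and 3. Thus injured knockout replicate 3 was lowest of the 6 injured arrays for the macrophage mean and for Clec4n, Clec4d, Clec7a, Clec5a, Clec4a2 and Clec12a. Injured wild-type replicate 2, at 14.5 weeks the oldest mouse, and injured knockout replicate 3 were the injured arrays labelled female. Each was the lowest of its group for Clec4n, Clec4d, Clec7a, Clec5a, Clec12a and the macrophage mean. Sex cannot be told apart here from differences between single mice, in age or in extraction batch.

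**Figure D5:**
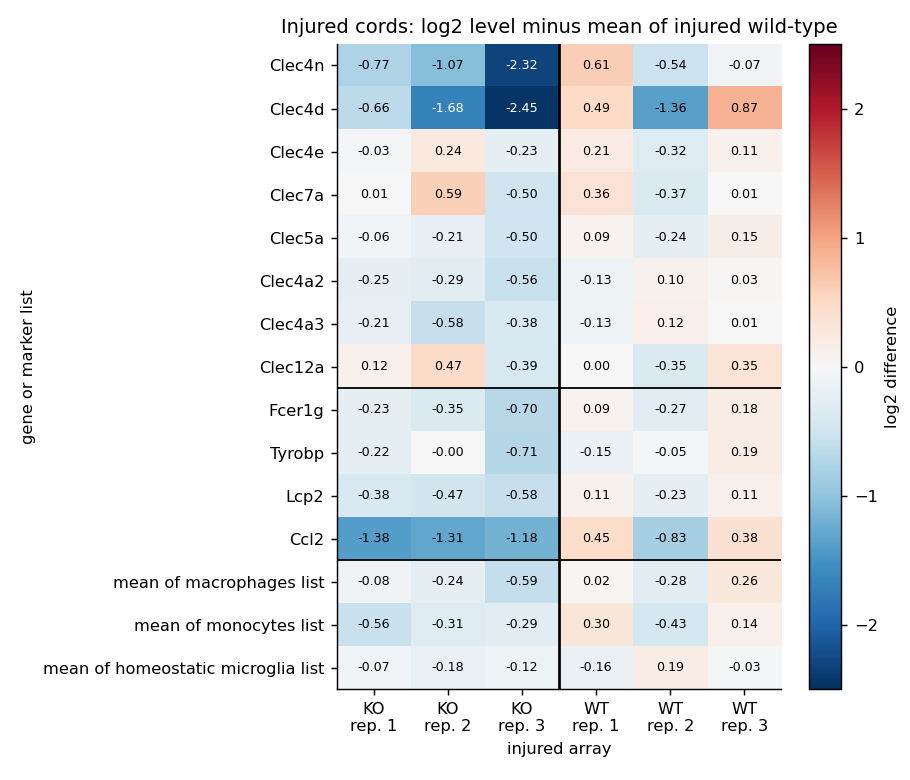
Log2 level on each of the 6 injured arrays minus the mean of the injured wild-type arrays, for the 8 receptors, 4 genes of their pathway and the mean of 3 marker lists. Knockout replicate 3 is the lowest array for Clec4n (-2.32) and Clec4d (-2.45) and for the macrophage mean (-0.59), and wild-type replicate 2 is below the other wild-type arrays for Clec4d (-1.36). Both arrays are labelled female.

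Likeness of pattern was measured as the root-mean-square difference over the 12 arrays between profiles centred on their own means, in log2 units, as a description. Profiles were not scaled, so that this difference tends to be small for genes that change little and larger for genes that change much. Clec4a2 and Clec4a3 had the smallest difference of any pair of members (0.17), followed by Clec4e and Clec12a (0.22). These were the members that injury moved least. Nearest to the mean of the 8 receptors were Abcc3 (0.13), the cytokine receptor subunits Csf2rb (0.13) and Csf2rb2 (0.14), Eif4ebp1 (0.16) and Slc7a8 (0.17). By member, the nearest gene was Ms4a6d for Clec4n (0.40), Thbs1 for Clec4d (0.45), Olr1 for Clec4e (0.10), Spp1 for Clec7a (0.23), Cyba for Clec5a (0.16), Anxa11 for Clec4a2 (0.09), Cdt1 for Clec4a3 (0.12) and Ikbke for Clec12a (0.16). The distances of Clec4n and Clec4d were larger than the other 6, and their nearest genes, Ms4a6d and Thbs1, averaged 6.65 and 8.56 log2 in injured knockout cords and 7.38 and 9.47 in injured wild-type cords. These genes were picked over arrays that include the injured ones, so a like difference between genotypes comes in part from the choice. Spp1, nearest to Clec7a, averaged 12.1 in injured knockout and 12.3 in injured wild-type cords.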

How the data were processed

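Spinal cords of 12 mice were each measured on 1 Affymetrix Mouse Exon array. The deposited values are log2 signals per exon probeset, which the authors made with RMA in Partek Genomics Suite 6.5 on core probesets. They hold no counts, and the number of arrays limits the precision. Columns of authors' comparisons were not part of the table used. All 12 columns were mapped to mice through the labels. Gene levels leave out 1331 probesets with more than 1 gene name and 13317 with no gene name. RefSeq (GRCm38.p6) held 13745 of the gene symbols as listed and 2046 as a synonym, and 39 were unmatched.

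Gene levels, the mean of a gene's probesets, were fitted with limma 3.58.1 (R 4.3.3, data.table version 1.17.8), with injury effects and the interaction over 12 arrays in 4 groups and genotype within the 6 injured or 6 sham-operated arrays. P-values were adjusted over all genes by Benjamini-Hochberg. The steps were tested on simulated data. The members, lists and tests were chosen with earlier results of these data known. The genes named are the 8 members, Epha4, the nearest profiles and genes from each pathway list. For the lists the rule took the 4 with the smallest p for injury and the 2 for genotype, and not all of these are printed. Syk, Card9, Bcl10, Malt1, Il1b, Il6, Sap130, Eif2s3y and the marker genes were named after their values were seen, although Bcl10 and Sap130 also fall under the genotype rule. Alternatives were other probeset summaries, scalings, filters, thresholds and fits, terms for sex, extraction batch and replicate number, and leaving out each array. Same-numbered arrays did not deviate together (median correlation 0.002 over 18 pairs, 5 of them over 0.1). Lists hold genes with a row in the table used; others were not analysed here. Promoter sequences came from RefSeq (GRCm38.p6), and protein sequences were not used here. Searches and figures used Python.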

Additional observations from a re-analysis of the deposited data

Results flagged for a closer look

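Clec4n was picked out because its injury response had a raw p below 0.01 in the test of the difference between genotypes, an interaction of -1.51 on the log2 scale. It did not pass adjustment over all genes (limma adjusted p = 0.853), and 1.05% of all genes reached that raw threshold and fold change. The call was lost in 11 of 20 alternatives. Hemisection raised Clec4n in all 3 injured arrays of each genotype, by 1.83 ± 0.35 in EphA4 knockout cords and 3.34 ± 0.35 in wild-type cords (SE). The interaction was below 0 in each of the 12 fits without 1 array and passed the raw threshold in 4 of them.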

How the results depend on the processing

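The count of 7 receptors raised by injury held in every alternative fit and without any array, and became 4 where a fold change of at least 2 was required. The injury count ranged from 3 to 6 in knockout and from 5 to 7 in wild-type cords without 1 array, and the probeset count from 27 to 34. Calls between genotypes in injured cords were unsteady. Their count of 1, where 0.796% of all genes were called, became 3 with the median of probesets (0.739%), 2 with sex as a term (0.929%) and 4 with all 12 arrays in 1 fit (1.32%). It became 0 without the dimmest 25% of probesets, with arrays centred, with arrays quantile normalized again, with a one-way analysis of variance (0.524%) and at an adjusted p under 0.05, and was 0 to 2 without 1 array. The interaction count of 1 became 2 with the median of probesets and 0 without the dimmest 25% of probesets, with arrays centred, with extraction batch as a term and at an adjusted p under 0.05, and was 0 to 2 without 1 array. With the replicate block the count between genotypes in injured cords was 2, Clec4d being added at -1.60, although the replicate numbers do not pair the mice; no other count of calls on the receptors changed by over 1.5 times under the block. Over all genes the 126 calls between injured genotypes became 209 with all 12 arrays, 83 with the analysis of variance and 202 with extraction batch as a term, the 213 between sham-operated genotypes 92 with the analysis of variance, and the 167 of the interaction 287 with extraction batch. At an adjusted p under 0.05 they became 0, 1 and 0. With extraction batch as a term, the 2 arrays alone in their batch carry no weight.

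Of the 8 receptors, Clec4n and Clec4d kept their sign between injured genotypes in all 16 alternatives, from -1.74 to -0.92 and from -2.28 to -1.16. Signs turned only for values that were not called. With the median of probesets these were Clec12a between injured genotypes (-0.0003), Clec4d (0.18), Clec5a (0.12) and Clec4a3 (0.12) between sham-operated genotypes, and the interactions of Clec7a (0.052) and Clec12a (-0.0076). Without the dimmest 25% of probesets Clec4a3 was at 0.0043 in sham-operated cords, with arrays centred Clec4e was at 0.025 in injured cords, and with quantile normalization the interaction of Clec12a was -0.066. With extraction batch as a term Clec4e was at 0.10 in injured cords, Clec12a at -0.091 in sham-operated cords and the interaction of Clec7a at 0.20. Without 1 array, signs turned within -0.17 to 0.11 for Clec4e, -0.24 to 0.30 for Clec7a and -0.14 to 0.29 for Clec12a in injured cords, -0.28 to 0.041 for Clec4d, -0.19 to 0.060 for Clec5a and -0.090 to 0.11 for Clec12a in sham-operated cords, and -0.36 to 0.18 for Clec7a and -0.17 to 0.26 for Clec12a in the interaction. The causes were not tested.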
